A study of Hymenochirus boettgeri with 8 samples.

Results

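A set of 30 genes of Hymenochirus boettgeri, the dwarf clawed frog, was chosen because its poly-A RNA was abundant in unfertilized eggs and lower by the 8-cell stage. The 30 were drawn from 145306 assembly genes, that is, transcripts grouped by the gene part of their identifier, with their TPM summed. TPM is a transcript's share of a library, scaled for its length. A gene was a member if the lower of its egg libraries was at least 10 TPM and at least 2 times the higher 8-cell library. In addition its 8-cell maximum had to be below 20 TPM, and its highest stage 26 or tadpole level below its lowest egg level. These measured values chose the members, so the fall from egg to 8-cell stage is given as a description and is not tested as a finding.

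The series held 8 libraries from whole wild-type animals. Each of 4 stages had 2: the egg before fertilization, the 8-cell embryo, the embryo at stage 26 of the Nieuwkoop and Faber (NF) table, and the swimming tadpole. No stage received a treatment. The sources used here give neither the number of animals in a library nor the clutches, so the spread between libraries may be technical. The identifiers were not paired with gene names, so marker genes of the egg could not be checked and the roles of the members are unknown. Members are called by their rank in egg mean (member 1 has the highest), and 5 of them also by identifier.

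In frogs such as Xenopus, the egg is loaded during oogenesis with maternal mRNA, and the embryo's own genes stay almost silent through the first cleavages. Changes in mRNA over that period therefore come mainly from decay and from changes in poly-A tail length. In Xenopus some maternal mRNAs lose their tail soon after fertilization and are degraded only later. Poly-A capture retains RNA by its tail, so a shorter tail and fewer molecules cannot be told apart in these libraries. Fewer cells of a type and less RNA per cell cannot be told apart either, since whole eggs and animals were sampled.

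The libraries differed in how many genes they detected. Between 51089 (egg replicate 1) and 121300 (tadpole replicate 2) assembly genes were above 0, and egg replicate 2 held 77233. Across the 119072 genes tested, log2 levels correlated at r = 0.66 between the egg libraries and at r = 0.89 between the 8-cell libraries. An egg and an 8-cell library correlated at r = 0.77 to 0.84, so the egg libraries differed more from each other than from the 8-cell libraries. Genes are not independent replicates in these correlations. Read totals were not used, and the depth behind each value is unknown.

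With TPM as deposited, few abundant egg genes were lower at the 8-cell stage. In 5525 genes both egg libraries held at least 10 TPM, and in 65 of them (1.18%) the lower egg library was at least 2 times the higher 8-cell library. The same criteria in the other direction, with a gene at 10 TPM or more in both 8-cell libraries, were met by 1415 of 10437 genes (13.6%). This balance turned with the scaling: after median-of-ratios scaling 503 of 6301 egg genes (7.98%) were lower and 290 of 7681 8-cell genes (3.78%) higher. After quantile normalization 129 (1.89%) were lower and 689 (6.71%) higher. Both scalings were applied to this count after the data were seen. Of the 65, 15 had an 8-cell maximum of 20 TPM or more. Another 20 reached their egg minimum again at stage 26 or in tadpoles, which left 30. Over the 5525 genes the median log2 ratio of 8-cell to egg means was -0.02 on the log2(TPM + 1) scale. This median is given for TPM as deposited only. Together these genes held 74.2% ± 6.16 of the TPM in eggs and 66.8% ± 0.726 at the 8-cell stage (mean ± SD, n = 2 libraries).

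**Figure D1:**
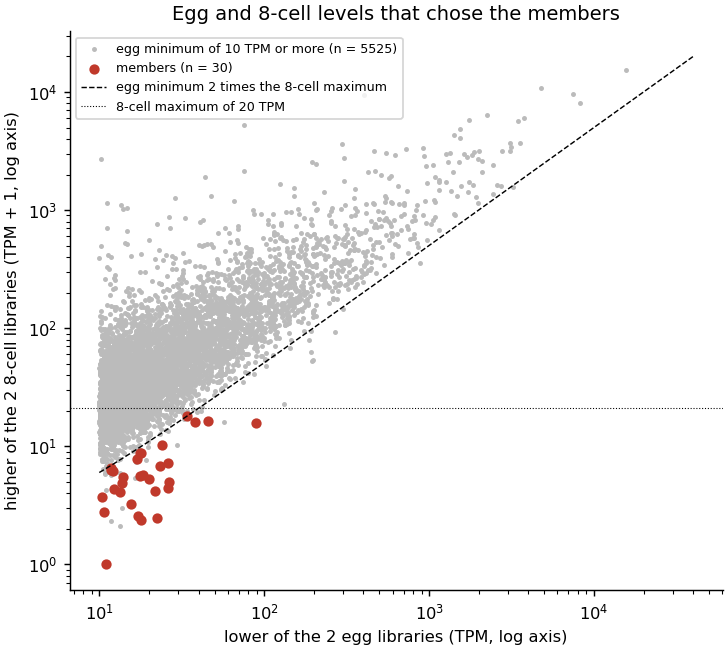
Lower egg library (x axis, TPM, log axis) against higher 8-cell library (y axis, TPM + 1, log axis) for the 5525 genes with an egg minimum of 10 TPM in grey, with the 30 members in red. The members lie below the dashed line that marks a 2-fold difference and below the dotted line at 20 TPM, at the edge of a continuous cloud with no gap at the dashed line; grey points below both lines failed the limit on late levels.

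The size of the set rested on the replicates. With egg replicate 1 left out of the rule 1656 genes passed before the cap of 300, and with egg replicate 2 left out 1757 passed. Leaving out a library can only loosen the rule. All 30 members therefore had to pass each time before the cap, and the count could not drop below 30. Without 8-cell replicate 1 there were 50, and without 8-cell replicate 2 there were 148. Leaving out a stage 26 or tadpole library gave 32 to 35. At the edge of the rule, the members with the smallest ratio of egg minimum to 8-cell maximum stood at 2.01, 2.09 and 2.22. The nearest of the 428 genes that met every other condition stood at 1.99, 1.98 and 1.97, and 36 of the 428 were at 1.5 or more.

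The members were moderately abundant in eggs and low afterwards. Their median level was 27.6 and 22 TPM in the egg libraries, against 4.15 and 3.82 TPM in the 8-cell libraries. At stage 26 the medians were 2.86 and 3.24 TPM, and in tadpoles 3.0 and 1.79 TPM. The drop thus lay between egg and 8-cell stage, where the rule placed it, and the medians of all 4 later libraries were lower than both 8-cell medians. All 30 members were above 10 TPM in both eggs by the rule. At the 8-cell stage 3 members in replicate 1 and 2 in replicate 2 still were. In the late libraries 2 to 5 members were at 10 TPM or more, and 3 to 6 were listed at 0.

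**Figure D2:**
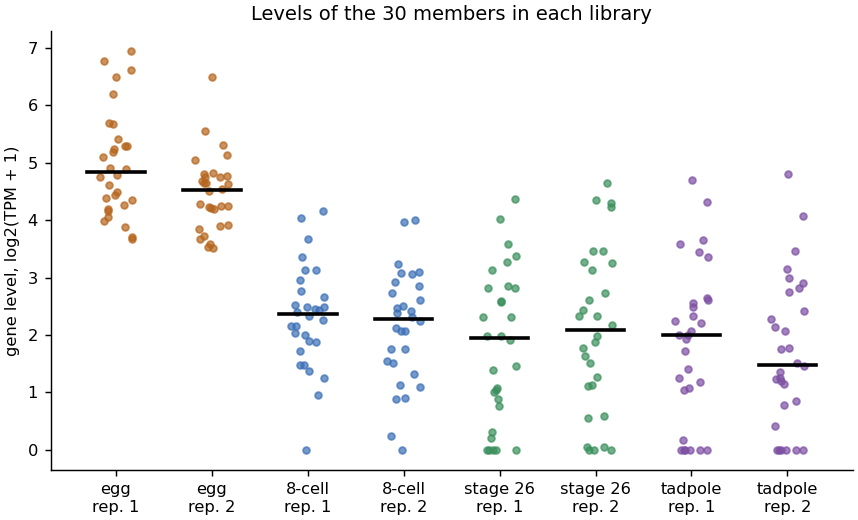
Level of each of the 30 members, log2(TPM + 1), in each of the 8 libraries; each point is a gene and black bars are medians over members. The medians of both egg libraries stand above those of the 6 later libraries, which overlap widely. In each 8-cell library 1 member is listed at 0, and in the late libraries 3 to 6 are.

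As a share of the library, the members held 0.0938% ± 0.0304 of the TPM in eggs and 0.0142% ± 0.00117 at the 8-cell stage (mean ± SD, n = 2 libraries). They held 0.0147% ± 0.00305 at stage 26 and 0.0129% ± 0.00138 in tadpoles. The rule set the egg and 8-cell levels, so the difference between those shares is a description. No exact permutation test was made on any of the shares, because 2 libraries against 2 allow no two-sided p below 0.333. The 5 members with the highest egg means made up 36.5% of the summed egg level. The median egg mean was 24.3 TPM over the members and 36.9 TPM over the 5525 genes with an egg minimum of 10 TPM, a difference that the limit of 20 TPM at the 8-cell stage favours.

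Relative to its own egg mean, a member retained a median of 15.8% at the 8-cell stage, with quartiles of 7.92% and 25.04%. The range ran from 0% to 37.5%. The ratio of egg minimum to 8-cell maximum had a median of 3.83 over the 29 members above 0 at the 8-cell stage and reached 15.04. It was at least 4 in 14 of the 30, counting the 1 member listed at 0 in both 8-cell libraries.

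Member 1 was the most abundant and the most even between the eggs, with 89.6 and 89.4 TPM. It held 11.8 and 14.7 TPM at the 8-cell stage, 15.3 and 19.3 TPM at stage 26, and 25.1 and 27.1 TPM in tadpoles. No library pair of a stage overlapped the next in this gene, which the rule required only between eggs and 8-cell libraries. It was lowest at the 8-cell stage and then higher at each later stage, but neither later step passed the test described below. The log2 differences were 0.36 to stage 26 and 0.57 to the tadpole (adjusted p = 0.621 and 0.750, limma). Of all tested genes, 42% and 20.4% were higher without overlap at these steps. By the rule the late levels of member 1 stayed below the eggs. Members 2, 3 and 4 were close to or above 100 TPM in egg replicate 1 only. Member 2 had 122 and 34.0 TPM in eggs, then 17 and 7.54 TPM at the 8-cell stage. Member 3 had 108 and 18.4 TPM in eggs, and 4.71 and 2.38 TPM at the 8-cell stage. Member 4 had 97.2 and 26.2 TPM in eggs, and 3.77 and 6.18 TPM at the 8-cell stage. In all 3 the egg libraries lay further apart than the lower egg library and the 8-cell libraries, in TPM.

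Members 2, 3 and 4 then took different courses. Stage 26 and tadpole levels of member 2 were nearly flat, from 15.9 to 19.7 TPM. Member 3 was at 0 and 2.41 TPM at stage 26 and at 1.39 and 0.323 TPM in tadpoles, so it had almost gone. Member 4 was at 5.23 to 6.50 TPM in 3 of the late libraries and at 17.8 TPM in stage 26 replicate 2. Member 5 was even between the eggs (50.9 and 45.8 TPM) but uneven at the 8-cell stage, with 15.4 TPM in replicate 1 and 4.54 TPM in replicate 2. Member 7 showed the reverse order there, with 38.1 and 38.6 TPM in eggs and 4.43 and 15 TPM at the 8-cell stage. That both 8-cell libraries lay below both eggs in each was set by the rule, and the 8-cell replicates differed over 3 times in level.

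Agreement between the egg libraries divided the members. In 15 of 30 (50%) the egg levels were within 1.5 times of each other, against 1981 (35.9%) of the 5525 genes with an egg minimum of 10 TPM. The 2-fold condition acts on the lower egg library, which favours even eggs, so these shares are not directly comparable. In 12 members the egg levels were over 2 times apart, and 11 of these 12 were higher in egg replicate 1. The same counts over the 5525 genes are not given here, so this split is not read as particular to the members. The widest gap was 5.88 times, in member 3. Replicate 1 was the higher egg library in 20 of 30 members (66.7%) and in 64.8% of the 5525 genes. The median ratio of egg minimum to 8-cell maximum was 3.78 in the 15 members within 1.5 times and 3.87 in the other 14 above 0. The rule required a ratio of at least 2 in both groups, so these medians cannot show whether the fall depended on egg agreement. The 8-cell libraries were within 1.5 times in 15 of the 29 members above 0 there.

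The members with the largest falls on the log2(TPM + 1) scale were c11783_g1 (member 16) and c84931_g1 (member 9). The first was at 36.9 and 11 TPM in eggs, listed at 0 in both 8-cell libraries, at 0.836 TPM in stage 26 replicate 1, and listed at 0 in the other 3 late libraries. It was thus an egg transcript nearly without trace in later stages. The second was at 41.8 and 17.3 TPM in eggs and at 1.59 and 0.866 TPM at the 8-cell stage. It stood slightly higher again at stage 26, with 2.95 and 4.0 TPM, and in tadpoles, with 4.90 and 2.42 TPM. Its late libraries all lay above its 8-cell libraries and, by the rule, all below its eggs. The log2 differences from egg to 8-cell stage were -4.41 (SE 0.65) for c11783_g1 and -3.67 (SE 0.60) for c84931_g1.

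In a fit to all tested genes, no member passed as lower at the 8-cell stage, and neither did any of the 119072 genes (0%). The smallest adjusted p among the members was 0.212 (limma, two-sided, Benjamini-Hochberg adjusted over all tested genes). At an unadjusted p under 0.05, 26 of the 30 were lower, compared with 0.49% of tested genes lower and 5.9% higher (limma). With median-of-ratios scaling 1.46% of tested genes were lower and 2.69% higher at that p (limma). The rule chose the members on this contrast, so the count of 26 is not evidence about them. All 30 log2 differences were negative by the rule, from -4.41 to -1.25 with a median of -2.39. The median over all tested genes was 0. It was -0.13 with quantile normalization, where the members' median was -2.38, and the members' median was -3.00 with median-of-ratios scaling.

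**Figure D3:**
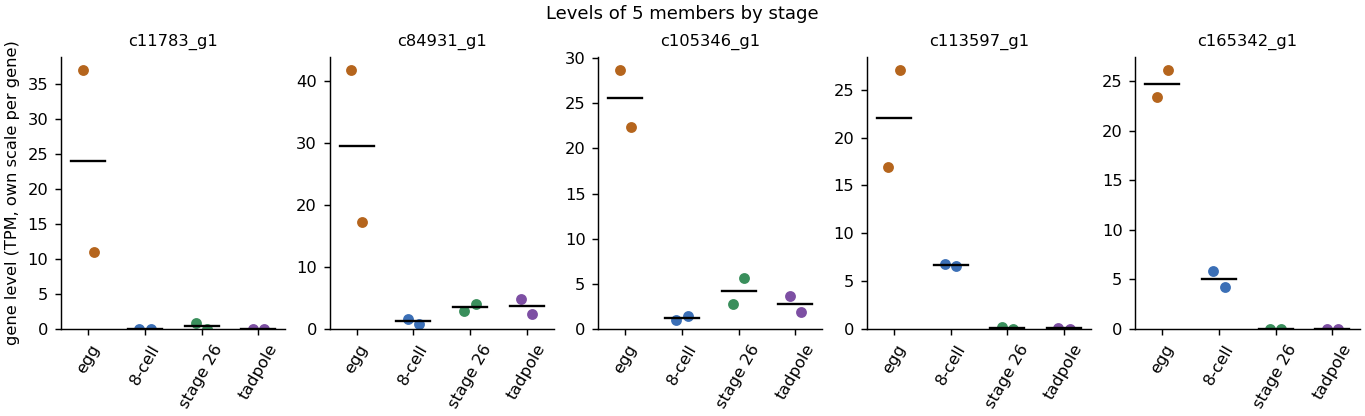
Levels in TPM of the 5 members given by identifier, with 1 point per library and black bars for the stage means; each panel has its own scale from 0. c11783_g1, c113597_g1 and c165342_g1 are at or close to 0 in stage 26 and tadpole libraries, whereas c84931_g1 and c105346_g1 are lowest at the 8-cell stage.

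Between the 8-cell stage and stage 26, 4 members fell and none rose at an adjusted p under 0.05, of 30 tested. Over all tested genes 3.27% were called lower and 10.6% higher. The rule barred high late levels and took low 8-cell levels, so these shares are not directly comparable. The 4 falls were of members that still held several TPM at the 8-cell stage. In c113597_g1 (member 20), 16.9 and 27.1 TPM in eggs gave way to 6.77 and 6.54 TPM at the 8-cell stage. Stage 26 held 0.157 and 0.029 TPM, and tadpoles 0.121 and 0 TPM. Its late libraries did not overlap its 8-cell libraries, whereas the gap between the eggs and all later libraries was set by the rule. The log2 difference from 8-cell stage to stage 26 was -2.81 (SE 0.47, adjusted p = 0.0180, limma).

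In c165342_g1 (member 15) the eggs held 23.3 and 26.1 TPM and the 8-cell libraries 5.82 and 4.2 TPM, and all 4 late libraries were listed at 0. Its log2 difference was -2.57 (SE 0.44, adjusted p = 0.0192, limma). Member 25 was alike, with 11.7 and 23.7 TPM in eggs, 5.30 and 3.71 TPM at the 8-cell stage and 0 in all late libraries (adjusted p = 0.0284, limma). Member 13 fell less far, from 9.26 and 8.37 TPM at the 8-cell stage to 1.02 and 1.85 TPM at stage 26 (log2 difference -2.03, adjusted p = 0.0423, limma). These 4 were singled out after their values were seen. A transcript at 0 in several libraries has a small spread there, which enters its test.

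Which of the 4 were called depended on the libraries in the fit. None was called without 8-cell replicate 1 (adjusted p from 0.172 to 0.236, limma) or without 8-cell replicate 2 (0.143 to 0.201, limma), when no gene in the whole table was called, and 1 without stage 26 replicate 1. The log2 differences were -2.79 to -1.97 without 8-cell replicate 1 and -2.83 to -2.10 without replicate 2, compared with -2.81 to -2.03 in all libraries. With a pseudocount of 5 there was none, with adjusted p from 0.0584 to 0.121 (limma). The call of member 13 was also lost without the filter on low values (adjusted p = 0.0521), with median-of-ratios scaling (0.0852), without genes listed at 0 throughout the early libraries (0.0628) and with the replicate block (0.0835, all limma).

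Other members stood higher at stage 26 than at the 8-cell stage, without passing the test. In 9 of 30 both stage 26 libraries lay above both 8-cell libraries, and in 6 of 30 below both; of all tested genes 42% lay above and 19.9% below. The largest such differences were in c105346_g1 (member 14) and again c84931_g1. The first went from 28.7 and 22.4 TPM in eggs to 0.942 and 1.49 TPM at the 8-cell stage and 2.77 and 5.63 TPM at stage 26. In tadpoles it stood at 3.62 and 1.84 TPM, above the 8-cell libraries and far below the eggs. Its log2 difference from 8-cell stage to stage 26 was 1.19 (SE 0.54, adjusted p = 0.172, limma), and that of c84931_g1 was 1.02 (SE 0.60, adjusted p = 0.280, limma). Over the 30 members the median log2 difference of this step was 0.064, with 16 above and 14 below 0, and the median over all tested genes was 0.57. The rule bounded both the 8-cell and the late levels of the members, so neither these medians nor the shares above are directly comparable.

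Taking the 4 late libraries together, 6 members lay above both 8-cell libraries in all 4, 5 (16.7%) lay below in all 4, and 19 overlapped. Over all tested genes 33.6% lay above and 16.6% below. The 6 were members 1, 9, 10, 14, 24 and 26. The clearest was member 26, with 18.3 and 13.9 TPM in eggs, 4.50 and 4.33 TPM at the 8-cell stage and 8.62 to 9.99 TPM in the late libraries. Its late mean was 59.6% of its egg mean. If a 2-fold gap was asked for, 0 members lay above and 4 (13.3%) below, against 28.2% and 9.69% of all tested genes. The rule limited the late levels of the members, so these shares are not directly comparable. Of the 428 genes that met every condition but the 2-fold one, 0 lay above and 300 (70.1%) below; their 8-cell level was bounded from below by the missing fold condition, which by itself lowers the first count and raises the second.

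**Figure D4:**
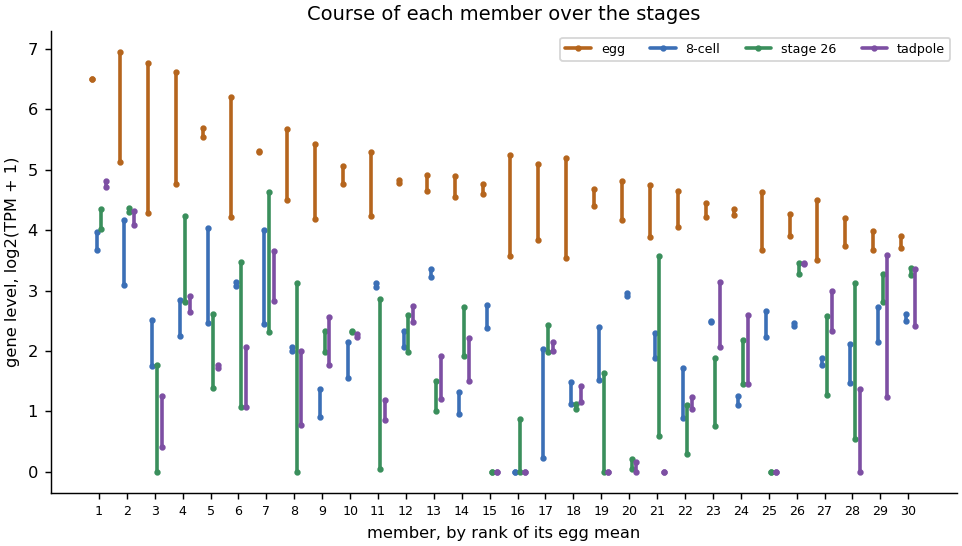
Range over both libraries of each stage, log2(TPM + 1), for each of the 30 members ordered by egg mean (x axis, rank). Egg ranges stand above all others by the rule; members 15, 20 and 25 descend further after the 8-cell stage to 0 or near 0, and members 1, 9, 10, 14, 24 and 26 have all late libraries above their 8-cell libraries.

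From stage 26 to the tadpole no member was called higher or lower, against 4.35% and 0.981% of all tested genes (limma, smallest adjusted p among members 0.343). At an unadjusted p under 0.05 there were also 0 members in either direction, where 11.6% of tested genes were higher and 4.78% lower (limma). Tadpole libraries lay above both stage 26 libraries in 3 members and below them in 2, where 20.4% and 14.9% of tested genes did so. The members' median log2 difference was -0.10. The rule capped the members' late levels, and their late medians were 1.79 to 3.24 TPM, where log2(TPM + 1) understates changes. Shares of members and of all tested genes are therefore not directly comparable at this step. Stage 26 itself was uneven: in 11 members the stage 26 libraries were over 5 times apart or 1 of them was at 0. For example, member 21 was at 10.9 TPM in stage 26 replicate 1, 0.506 TPM in replicate 2 and 0 in both tadpole libraries.

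Compared with the 8-cell libraries directly, both tadpole libraries lay above in 8 members and below in 11 (48.2% and 22.2% of tested genes). The rule took low 8-cell levels and capped the late levels, so these shares are not directly comparable.

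Late levels thus differed between members. With a 2-fold gap, however, 26 of the 30 counted as overlapping their 8-cell libraries, 4 lay below and 0 above. Of the 30, 18 were at 1 TPM or more in all 4 late libraries, 4 were below 1 TPM in all 4, and 2 of those 4 were listed at 0 throughout. The stage 26 mean was a median of 13.0% of the egg mean and at most 69.1%, and the tadpole mean a median of 8.59% and at most 61.6%. In 20 members the highest late library was at most 1/2 of the lowest egg library. There were 21 members above 0 in all 8 libraries. The same counts over other genes are not given here, so they are not read as particular to the members.

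How a gene's total divides among its transcripts was not used by the rule. Of the members, 19 (63.3%) had 1 transcript, as had 61.3% of the 5525 genes with an egg minimum of 10 TPM. The other 11 had 32 transcripts, of which 22 had an egg mean of at least 1 TPM. Both 8-cell libraries lay below both eggs in 18 of these 22 and above both in none. Of all tested genes, 3.13% lay below and 20.5% above. Those shares are of gene totals without a limit on the egg level, so they are not directly comparable with the transcripts. The totals had to fall by the rule, which favours falls of the abundant transcripts without requiring each one. A transcript whose lower egg level exceeded its gene's 8-cell maximum had to fall, as in member 20 (16.2 against 6.77 TPM). Both 8-cell libraries lay below both eggs in all 16 transcripts with an egg mean of 5 TPM or more. In most of the 16 the rule had fixed this, so neither count is evidence about the members.

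The leading egg transcript mostly stayed the leading one. It held 50.1% to 100% of the gene's egg level, and it was also the main transcript at the 8-cell stage in 10 of the 11 members. It was the main one at stage 26 in 9 and in tadpoles in 8. Some late levels behind these counts were near 0, as in member 20 with 0.157 and 0.029 TPM at stage 26. The same counts over other genes with several transcripts are not given here, so they are not read as particular to the members. In member 11, which had 38.3 and 17.9 TPM in eggs, the main transcript held 99.9% of the egg level. At stage 26 it was at 4.75 TPM in replicate 1 and 0 in replicate 2, and in tadpoles it was listed at 0, where 2 other transcripts made up a remaining 1.27 and 0.809 TPM. Member 10 had a pair of egg transcripts of similar level, with egg means of 14.6 and 13.1 TPM, and its main tadpole transcript, at 64.1% of the tadpole level, was almost absent in eggs (0.074 and 0 TPM). There were 6 transcripts listed at 0 in both eggs, and all 6 were above 0 in a late library. Their highest late levels ran from 0.987 TPM (in member 14) to 6.52 TPM (in member 7). The same share over other transcripts at 0 in eggs is not given here, so it is not read as particular to the members.

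An assembly component joins assembly genes that share sequence, and most members belonged to one with several genes. The 30 members lay in 28 components, and 2 components held a pair of members each (members 10 and 12, and members 17 and 18). Members were alone in their component in 11 cases (36.7%), compared with 59.4% of the 5525 genes with an egg minimum of 10 TPM. In the 17 components that also held other genes, the other genes had a summed egg mean of at least 5 TPM in 12. This sum was not used by the rule, although reads may be divided among related sequences. Both 8-cell libraries lay below both eggs for the other genes in 9 of the 12 components and above both eggs in 2. The other genes met the 2-fold condition in 4 of the 12. Some of the falls were slight: the ratio of egg minimum to 8-cell maximum was 1.02, 1.04 and 1.11 in the components of members 28, 19 and 29. Over all components with an egg mean of at least 5 TPM, the total of all genes lay below in 7.25% and above in 25.1%. Those are whole totals, whereas the 12 sums leave the members out.

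The component of member 1 fell as a whole. Its other genes summed to 231 and 221 TPM in eggs and to 62.6 and 71.2 TPM at the 8-cell stage, a ratio of egg minimum to 8-cell maximum of 3.10. The pair of members 10 and 12 made up 87.5% of their component's egg level, and the other genes went from 7.53 and 8.45 TPM to 0.506 and 1.44 TPM. In both components the total over all genes therefore fell as well.

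Components of members 11 and 23 showed the opposite in their other genes. Those of member 11 stood at 25.5 and 28.7 TPM in eggs and at 50.3 and 49.7 TPM at the 8-cell stage. With member 11 included, the component held 63.7 and 46.6 TPM in eggs and 58.0 and 57.0 TPM at the 8-cell stage, so the stages overlapped. The other genes of member 23 stood at 4.85 and 11.8 TPM in eggs and at 22.3 and 18 TPM at the 8-cell stage, and its component total overlapped as well. Of the 17 components with other genes, the total still met the 2-fold condition in 9. Whether a shift of reads between related sequences took part in the falls of members 11 and 23 was not tested.

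**Figure D5:**
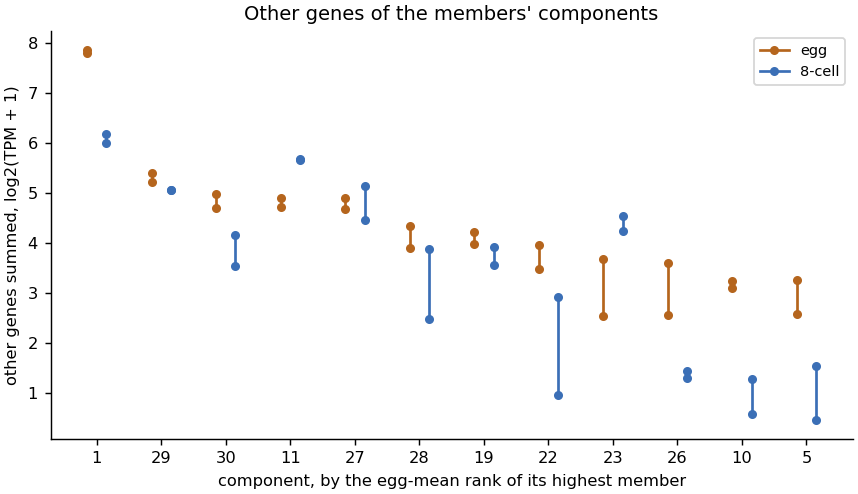
Summed level, log2(TPM + 1), of the other genes in the 12 components where these held a mean of at least 5 TPM in eggs; brown points are egg libraries, blue points 8-cell libraries, and the x axis gives the egg-mean rank of the component's highest member. The 8-cell libraries are lower in 9 components, higher in those of members 11 and 23, and overlap the eggs in that of member 27.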

How the data were processed

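TRIzol was used for RNA of 8 samples, followed by a column clean-up, poly-A capture and strand-specific Illumina libraries, per the labels' protocols. Deposited TPM came from kallisto (version 0.42.4 in the submitters' processing notes), and the sources used here do not name its transcript assembly or filters. kallisto divides reads among similar transcripts by estimation, so levels of related sequences depend on each other. TPM is relative: a few abundant transcripts lower all others. TPM was summed per assembly gene. Genes with at least 1 TPM in at least 2 libraries (119072) were fitted as log2(TPM + 1) with limma 3.58.1 in R 4.3.3, with a mean per stage over all 8 libraries and a variance trend, with calls at an adjusted p (Benjamini-Hochberg) under 0.05. Fold changes on this scale understate changes of low genes. The fit was also run on simulated log2 levels with normal noise and no undetected genes. That run says nothing about how the fit handles genes that are undetected in some libraries. Summaries used Python 3.11.15 with pandas 2.3.3, and plots matplotlib 3.10.9. Members and tests were chosen with earlier results of these data known. Named were the 2 largest falls to the 8-cell stage, the 2 largest rises to stage 26 without overlap, and 2 called falls. Alternatives varied the pseudocount, filter, scaling, variance prior, stages fitted, replicate block, libraries left out, feature level and the limits of the rule.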

Additional observations from a re-analysis of the deposited data

How the results depend on the processing

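The number of genes passing the rule moved with nearly every limit: 66 at 1.5-fold, 14 at 4-fold, 68 with an egg minimum of 5 TPM, 12 with 20 TPM, 50 without the late condition, 62 for single transcripts, 72 after quantile normalization and 212 after median-of-ratios scaling. All 30 members were among the 72 and among the 212. Component totals gave 20, which covered 18 members, and leaving out 1 library gave 32 to 300, the cap. The members' median log2 change from egg to 8-cell stage was -2.39, and -1.83 with a pseudocount of 5, -3.00 with median-of-ratios scaling, -2.07 for component totals and -2.63 to -2.19 with 1 library left out. From the 8-cell stage to stage 26 it was 0.064, and -0.11 with a pseudocount of 0.1, -0.42 after quantile normalization (which moved the median of all genes from 0.57 to -0.093), 0.28 with median-of-ratios scaling, 0.38 for component totals and -0.11 to 0.23 with 1 library left out. The cause was not tested. The 4 members called lower at stage 26 were 0 with a pseudocount of 5 and 0 to 4 with 1 library left out. The 6 members above the 8-cell libraries in all 4 late libraries became 0 with a 2-fold gap, where 28.2% of all tested genes lay above. The rule limited the members' late levels, so that share is not directly comparable. No alternative of the fit called a member lower at the 8-cell stage, higher at stage 26, or changed in tadpoles. From egg to 8-cell stage no alternative called any gene of the whole table, so that result says nothing particular about the members. Some alternatives called no gene at all in the later comparisons either. The cap of 300 genes was not reached in the main rule, so the share of TPM without it is the same. Deviations of same-numbered libraries correlated at -0.27 to 0.17 over 6 pairs of stages. These values cannot tell whether same-numbered libraries shared a clutch or a batch. The sources used here do not give the clutches. With the replicate block 2 of the 4 falls to stage 26 were called. That block called 4333 of all tested genes higher and 1300 lower at stage 26, against 12678 and 3893 without it. From stage 26 to the tadpole it called 0 in either direction, against 5183 higher and 1168 lower without it. Depth is unknown, so members listed at 0 may be present below detection.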
